A study of Mus musculus with 4 samples.

Results

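The distal end of mouse chromosome 8 carried 1080 of the 47777 regions at which eIF4A2 was enriched on RNA in J1 embryonic stem cells, once the peaks of the windows named Gse1 and Cmip were set aside. The members were chosen by position from measured peaks, that is, intervals in which eCLIP signal exceeded the input. They are the deposited peaks of chromosome 8 whose BED start lay at or beyond 110000000 (mm9), without the plus-strand peaks centred in chr8:119779000-119990000 (the window named Cmip, 115 peaks) and chr8:122750000-123120000 (the window named Gse1, 238 peaks). The 2 window names come with the rule and were not checked against an mm9 annotation, which was not used here. Positions are counted from 1. The last peak outside the boundary, at chr8:109996039-109996081 on the plus strand, had a log2 fold of 1.56. The first inside, at chr8:110009519-110009536 on the same strand, had 1.03.

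J1 is a line of the 129S4/SvJae strain. The cells were grown without feeders on gelatin in medium with serum and LIF, irradiated with ultraviolet light, and used for 2 IP libraries (antibody against eIF4A2) and 2 input libraries, both described as biological replicates. The 4 libraries came from the same untreated line, so the only contrast was IP against input. It was deposited as 1 list with 1 log2 fold per peak and no value per library. The spread between replicates, the counts behind a fold and the depth of the libraries are therefore unknown, and every comparison of peak sets given here is a description without a test. Intervals at 95% cover counting error over peaks only, and peaks lay in clusters, so they are too narrow.

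eIF4A2 is an RNA helicase of the DEAD-box family. Such helicases bind RNA largely through the sugar-phosphate backbone, using ATP to open short duplexes, and the eIF4A paralogs are best known for unwinding the 5′ ends of mRNAs during translation initiation. In eCLIP, ultraviolet light joins a protein to RNA it touches in the cell, the antibody recovers the joined RNA, and the input gives the background. The strand of a peak is that of the RNA, so peaks that follow each other on one strand can stem from one transcript. The number of peaks in a stretch of chromosome depends on how many genes it holds and how abundant their RNAs are, as well as on binding.

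The distal region was peak-dense. It held 1080 peaks over the 21.3 Mb from the boundary to the last peak of the chromosome, at chr8:131256966-131256997 (log2 fold 1.45). That was 50.8 peaks per Mb (exact Poisson interval 47.8 to 53.9). The rest of chromosome 8, from its first base to the boundary, held 2363 peaks, or 21.5 per Mb (20.6 to 22.4). The ratio of the densities was 2.37 (exact interval 2.20 to 2.54), and it would have been 3.14 with the peaks of the 2 windows kept. The members made up 28.5% of the chromosome's peaks in 16.2% of its length. The rule was proposed with peak positions known, so the excess itself is no finding, whereas how it was distributed is described next.

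A stretch of 3 Mb held 48.5% of the members. Of the full 1 Mb windows, the densest was chr8:125000001-126000000 with 225 peaks, 124 plus and 101 minus, and this was the highest count among all such windows of chromosome 8. The neighbouring chr8:126000001-127000000 held 152 (107 plus, 45 minus), and chr8:124000001-125000000 held 147 (73 plus, 74 minus). Together they held 524 members. Without these 3 windows the density ratio to the rest of the chromosome was 1.42 in place of 2.37. Only the distal side was trimmed for this value. The rest kept its own densest windows, which held 161, 157 and 154 peaks, so 1.42 is not a like-for-like ratio. A further window of more than 100 peaks, chr8:113000001-114000000, stood apart from them with 102 peaks (46 plus, 56 minus).

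**Figure D1:**
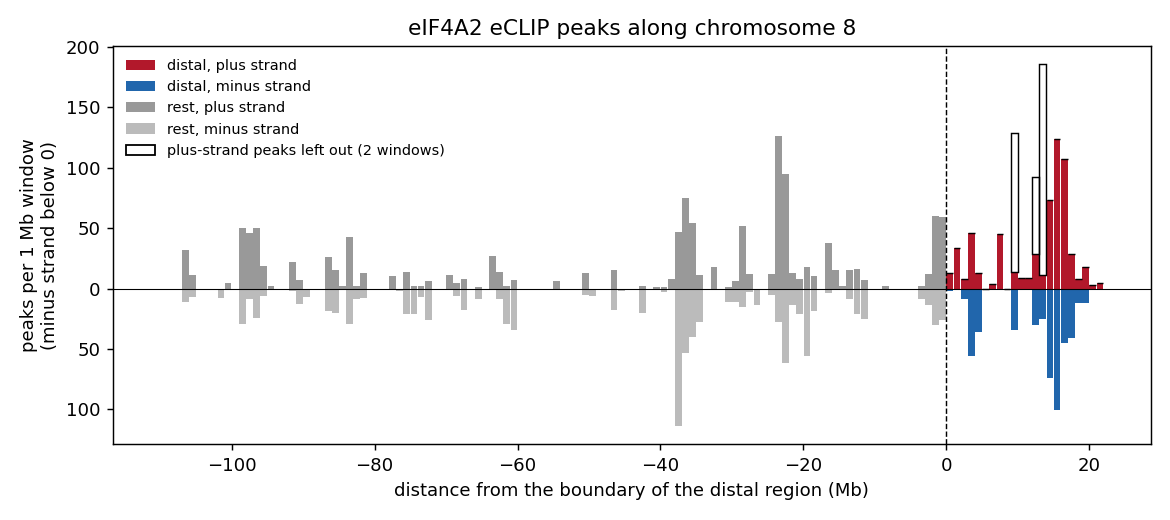
Peaks per 1 Mb window of chromosome 8, with the plus strand above and the minus strand below 0, against the distance from the boundary of the distal region in Mb (dashed line). Coloured bars are the 1080 members, grey bars the rest of the chromosome, and open bars the plus-strand peaks of the 2 windows that were left out; the tallest coloured bars are the adjoining windows with 147, 225 and 152 peaks.

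The remaining windows were less full. Over the 21 full windows the median was 34 peaks (interquartile range 10 to 59), against 9 (0 to 27) over the 110 windows of the rest of the chromosome. A count of at least 50 was reached by 6 of the 21 windows and by 13 of the 110. No peak at all was found in 2 of the 21, namely chr8:115000001-116000000 and chr8:118000001-119000000, and in 37 of the 110. The next emptiest, chr8:130000001-131000000, held 3 peaks, all on the plus strand. The longest intervals free of members on both strands measured 2.43 Mb (chr8:114535203-116967239), 1.60 Mb (chr8:120319079-121919144) and 1.48 Mb (chr8:117649020-119124231). None of them held a peak of the windows that were left out.

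The 2 left-out windows divide the members into segments of unlike density. Proximal to the Cmip window lay 314 members in 9.78 Mb, or 32.1 per Mb (28.7 to 35.9). Between the windows lay 78 in 2.76 Mb, or 28.3 per Mb (22.3 to 35.3). Beyond the Gse1 window lay 683 in 8.14 Mb, or 83.9 per Mb (77.8 to 90.5). The Gse1 window contributed its 5 minus-strand peaks, at chr8:123105686-123112967, with a median log2 fold of 1.32, and the Cmip window had no minus-strand peak. The plus-strand peaks next to the windows were well separated from those inside: 80.9 kb before and 49.3 kb after the Cmip peaks, and 108 kb before and 75.8 kb after the Gse1 peaks. The rule therefore did not cut through a chain of closely spaced peaks at the windows.

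Gene order offered a second scale. In the GENCODE M21 annotation of GRCm38, which is another build and was used here only for the names, order and strand of genes, Cmip is followed on the distal side by Plcg2 (phospholipase C gamma 2, a signalling enzyme). Gse1 is followed by Gins2, a subunit of the GINS complex of the replicative helicase, on the opposite strand, and further on by Emc8 (a subunit of the ER membrane complex) and Cox4i1 (a subunit of cytochrome c oxidase). No peak was assigned to any of these genes. If the windows are taken as Cmip and Gse1, 908 protein-coding genes precede Cmip, 27 lie between the 2 genes and 103 follow Gse1. The peaks of the matching intervals numbered 2677, 78 and 683, or 2.95, 2.89 and 6.63 peaks per gene. Of the 2677, only 314 were members, and 2363 lay proximal to the boundary. Genes were not counted on either side of the boundary, so no value per gene is given for the 314.

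Per gene, the higher count was thus beyond Gse1. There the plus strand held 378 peaks for 52 genes, or 7.27 per gene, and the minus strand 305 for 51, or 5.98 per gene. Before Cmip the values were 2.998 and 2.89. The RNA level and the length of these genes were not measured in the list, and their part in the counts was not tested.

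A dense distal end was not particular to chromosome 8. The last 21.3 Mb before the last peak were taken on each of 20 chromosomes (Y and the mitochondrial chromosome were left out). Distal chromosome 8 ranked 3rd, after chromosome 4 with 67.4 peaks per Mb (63.9 to 70.9) and chromosome 11 with 58.7 (55.5 to 62.1), and before chromosome 5 with 41.9 (39.2 to 44.7). With the peaks of the Gse1 and Cmip windows it would have ranked 1st, at 1433 peaks against 1432 on chromosome 4. The median over the 20 chromosomes was 21.1 per Mb. On 15 of the 20 the distal end was denser than the rest of the same chromosome, and the ratio on chromosome 8 was again the 3rd highest, after 4.10 on chromosome 4 and 3.48 on chromosome 12.

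**Figure D2:**
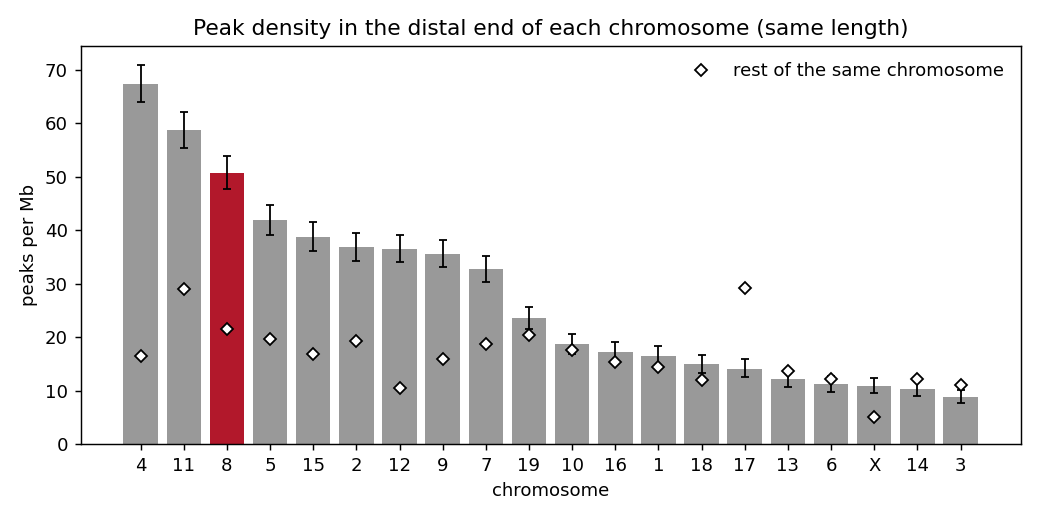
Bars give peaks per Mb in the last 21.3 Mb before the last peak of each of 20 chromosomes, with exact Poisson 95% intervals, and diamonds give the rest of the same chromosome. Chromosome 8 (red, without the Gse1 and Cmip windows) was at 50.8 per Mb, below chromosomes 4 and 11.

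The members were moderately enriched. Their median log2 fold was 1.60, or 3.04-fold, the quartiles were 1.27 and 1.99, and the highest value was 4.15. Every peak of the list exceeded a log2 fold of 1, so the medians of all sets are of values cut at that floor. The rest of chromosome 8 had a median of 1.62 (1.27 to 2.08), a difference of -0.02 in log2. In all, 266 members had a log2 fold of 2 (4-fold) or more, which is 24.6% (Wilson interval 22.2 to 27.3%), against 28.2% (26.4 to 30.03%) in the rest of chromosome 8 and 28.3% of the whole list. At 3 (8-fold) or more were 39 members, or 3.61% (2.65 to 4.90%), against 3.34% (2.69 to 4.15%) in the rest and 4.03% of the whole list. Within the region the medians were 1.52 proximal to the Cmip window, 1.67 between the windows and 1.63 beyond the Gse1 window, and 9 of 314, 1 of 78 and 29 of 683 peaks reached 8-fold.

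Of the peaks set aside, those of the Gse1 window had the higher folds, with a median log2 fold of 2.24, whereas the median in the Cmip window was 1.56, close to that of the members. Pooled, the 353 plus-strand peaks of the 2 windows had a median log2 fold of 1.98 (1.53 to 2.56), and 12.2% of them (9.17 to 16.01%) reached 8-fold. With both windows kept, the distal median would have been above that of the rest by 0.03 in log2.

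**Figure D3:**
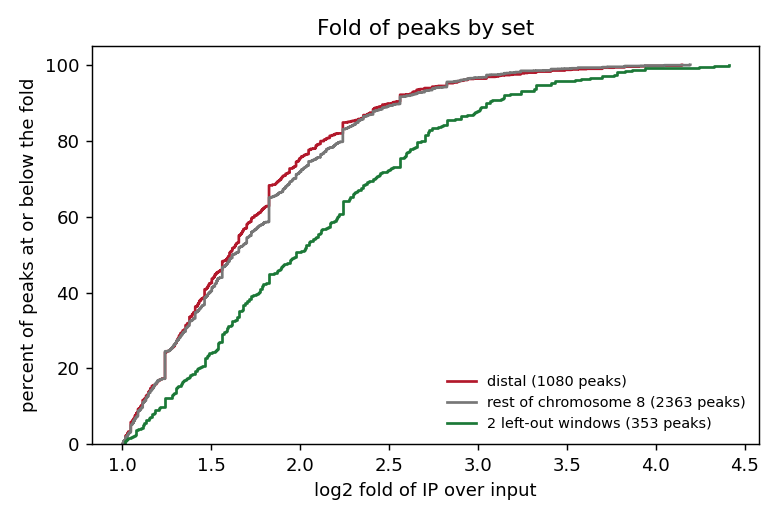
Cumulative percent of peaks (vertical axis) by log2 fold of IP over input (horizontal axis) for the members, the rest of chromosome 8 and the 2 left-out windows. The first 2 curves nearly coincide (medians 1.60 and 1.62), and that of the windows lies to the right (median 1.98).

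The dense 3 Mb, with 48.5% of the members, held 24 of the 39 members at 8-fold or more, and the remaining 15 lay elsewhere. The median log2 fold was 1.67 inside these 3 Mb and 1.56 for the other members. All 10 members with the highest fold were in chr8:124000001-127000000. Of them 8 were on the plus strand, which held 55.7% of all members. They were 11 to 54 bases wide, with a median of 28, against 32 for all members. The same log2 fold of 4.15 (17.7-fold) was given for a minus-strand peak of 15 bases at chr8:125811565-125811579 and a plus-strand peak of 18 bases at chr8:126831804-126831821. A plus-strand peak at chr8:126815056-126815080 followed with 4.05 (16.5-fold). No other member reached 16-fold.

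The next in order were more spread out. The plus strand held a peak with a log2 fold of 3.94 at chr8:124923169-124923199, and the minus strand one of 3.90 at chr8:124096134-124096187. A log2 fold of 3.82 occurred at both chr8:124832199-124832229 and chr8:125305596-125305613, on the plus strand. The last 3 of the 10 shared one locus with the peak of 16.5-fold. They were chr8:126787540-126787578 with 3.76, and chr8:126756162-126756172 and chr8:126794636-126794683 with 3.70 each. A minus-strand peak outside the dense 3 Mb, at chr8:128008540-128008564, tied with these at 3.70 and was left out of the 10 only because ties went to the lower position. None of the 10 stood alone: each had other members within 10000 bases on its strand, as did 91.8% of all members.

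Many high folds were simple ratios. Once a constant of 0.24 in log2 was taken off each value, 8 of the 10 highest folds were whole numbers between 11 and 15, and 21 of the 39 members at 8-fold or more were whole numbers (relative tolerance 1e-06). That is 53.8% of the 39, against 46 of 79 (58.2%) in the rest of chromosome 8 and 1313 of 1924 (68.2%) in the whole list. Among all members 213 (19.7%) were whole numbers, with 75 at 2, 59 at 3 and 31 at 4. The constant was chosen so that the commonest value of the whole list became 2, so the leading place of 2 there was set in advance. The share of whole numbers was 22.2% in the rest of chromosome 8 and 27.8% in the whole list. The read counts behind the ratios are not in the list, and whether the highest folds rest on few input reads was not tested.

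Narrow and wide members had similar median folds. With the members divided by width into 4 groups of 270, the narrowest (1 to 19 bases) had a median log2 fold of 1.61 and the widest (46 to 155 bases) one of 1.56. The groups held 8, 16, 8 and 7 peaks at 8-fold or more from narrow to wide, the 16 being in the group of 19 to 32 bases. Among all members 3.61% reached 8-fold, and in the whole list 4.03%. These small counts neither rose nor fell steadily with width. The median member was 32 bases wide, against 33 in the rest of chromosome 8. The widest member, 155 bases at chr8:126755313-126755467, had a log2 fold of 2.42 and opened the largest locus at its 5′ end. The next measured 148 and 146 bases, at chr8:126545403-126545550 and chr8:126554359-126554504, both on the plus strand and in one locus, with log2 folds of 2.24 and 2.06. The minus strand held one of 139 bases at chr8:127245725-127245863 (2.10), and a lone plus-strand peak of 133 bases lay at chr8:128519361-128519493 (1.82).

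The members fell into 241 loci, where a locus joins same-strand peaks separated by gaps of no more than 10000 bases. Of these, 89 were single peaks, 103 held at least 3 peaks and 29 held at least 10. The 29 large loci contained 536 members, or 49.6%, whereas in the rest of chromosome 8 the 37 loci of at least 10 peaks contained 599 peaks, or 25.3%. Single peaks were 8.24% of members and 13.5% of peaks in the rest. Loci as such were 1.66 times as frequent per Mb as in the rest (11.3 against 6.83 per Mb), so the density ratio of 2.37 reflected both more loci and more peaks in each. Joining at a fixed distance makes longer chains where peaks are denser, so larger loci are not a trait separate from density. Of the 29 large loci, 22 lay beyond the Gse1 window. The median log2 fold was 1.503 for single members and 1.63 for members of the large loci, while the corresponding values in the rest were 1.62 and 1.72. The medians did not rise steadily with locus size. In loci of 2 to 4 and of 5 to 9 peaks they were 1.62 and 1.56 for members, and 1.56 and 1.59 in the rest.

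The 10 loci with most peaks held 284 members, or 26.3%, in 372 kb, which is 1.75% of the length of the region. The largest, on the plus strand at chr8:126755313-126815080, held 44 peaks over 59.8 kb, whose median log2 fold was 1.88 (quartiles 1.48 and 2.36). Its first 25% held 18 of the 44 peaks and its last 25% held 8, yet its highest peak, at 16.5-fold, was the 3′-most one. Of its 44 peaks 17 reached 4-fold, a level reached by 24.6% of all members and 28.3% of the whole list. The 2nd, on the plus strand at chr8:125897729-125945088, held 35 peaks (median 1.56, quartiles 1.29 and 1.82), and its highest peak, with a log2 fold of 2.88, lay 7.77 kb from its 5′ end. The 3rd, on the plus strand at chr8:124471890-124549999, was the longest at 78.1 kb. Its 32 peaks were the most widely spaced of the 10 loci (0.410 per kb), and their median of 1.38 (1.14 to 1.70) was the lowest of the 10.

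The 4th and the 5th were on the minus strand and differed in shape. The former, at chr8:125407944-125423980, packed 30 peaks into 16.04 kb (1.87 per kb, 8.55% of its bases under a peak), with a median log2 fold of 1.57 and no peak above 2.54. The latter, at chr8:125037617-125075166, held 28 peaks (median 1.82, quartiles 1.60 and 2.28), of which 18 lay in the first 25% of its 37.6 kb. Its highest peak, with a log2 fold of 3.13 (8.74-fold), was 4.09 kb from the 5′ end. Here the 5′ part carried most of the peaks, a pattern that was opposite in the 6th locus. That one, on the plus strand at chr8:125589429-125627099, held 24 peaks with 4 in its first 25% and 12 in its last, although its highest peak (2.38) was the 5′-most.

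**Figure D4:**
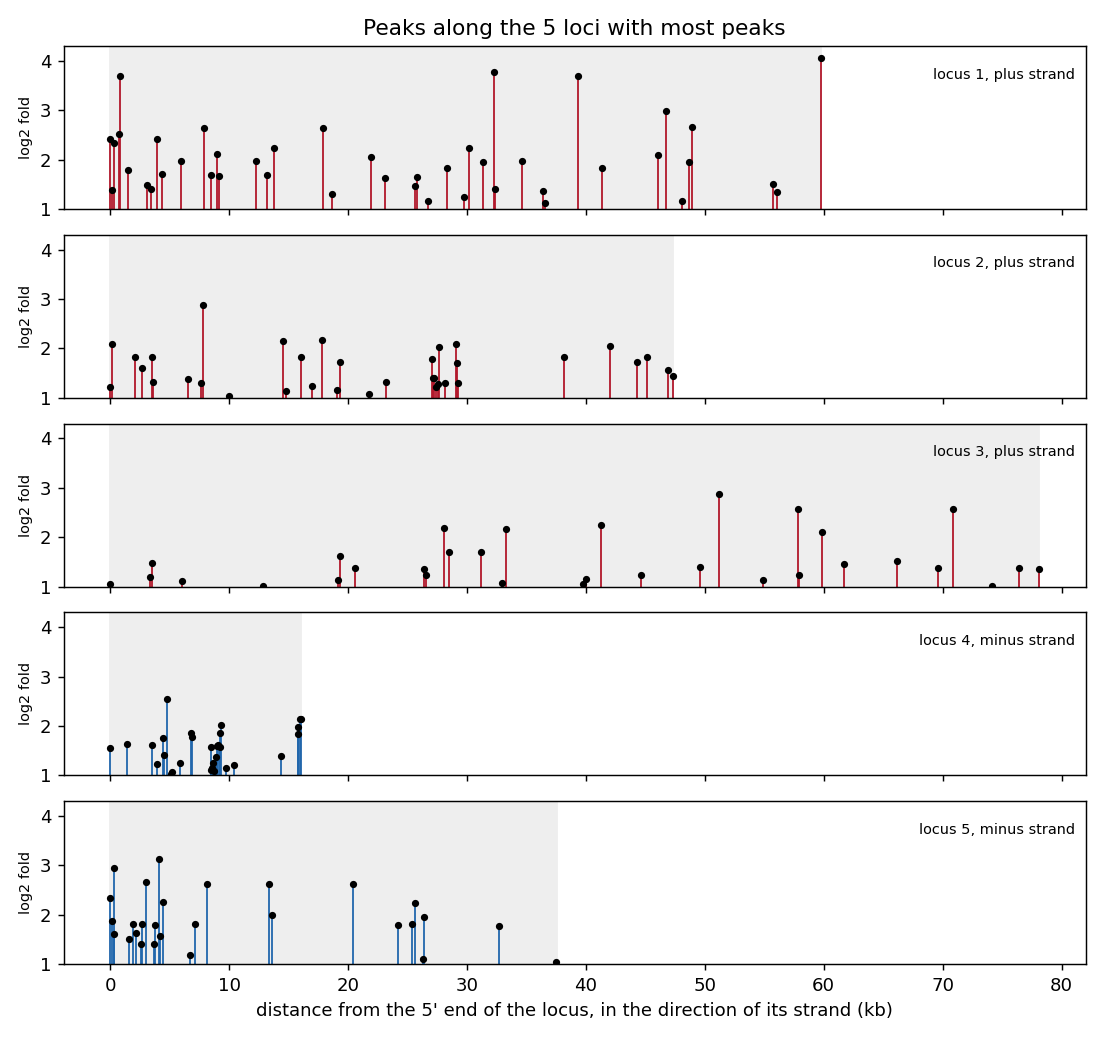
Each panel is one of the 5 loci with most peaks. The horizontal axis is the distance from the 5′ end of the locus in kb, in the direction of its strand, the stems give each peak's log2 fold of IP over input from a floor of 1, and the grey band spans the locus. Peaks of the 5th locus crowd near its 5′ end (18 of 28 in its first 25%), and the highest peak of the 1st, with a log2 fold of 4.05, is the 3′-most.

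The last 4 of the 10 included the loci outside the dense 3 Mb. The 7th, on the plus strand at chr8:122454360-122481561 between the Cmip and Gse1 windows, held 24 peaks with a median of 1.46. The 8th and the 10th formed part of the isolated dense window near the boundary. They held 23 peaks on the plus strand at chr8:113557828-113580853 (median 1.41) and 22 on the minus strand at chr8:113334785-113348092 (median 1.89). The folds of the 10th spanned a narrow range, 1.19 to 2.19. The 9th, on the minus strand at chr8:126926667-126958360, held 22 peaks with the highest median of the 10, 1.91 (1.73 to 2.53), and its highest peak, with a log2 fold of 3.53, lay 0.074 kb from its 5′ end.

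**Figure D5:**
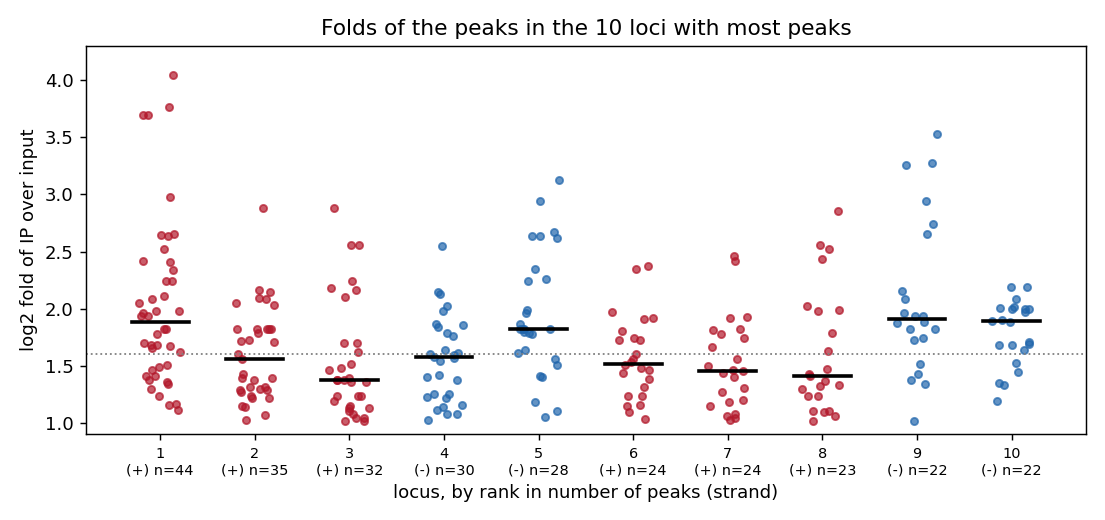
Log2 fold of IP over input for every peak (points) of the 10 loci with most peaks, with the median of each locus (bar) and that of all members at 1.60 (dotted line). Red is the plus strand and blue the minus strand; medians run from 1.38 in the 3rd locus to 1.91 in the 9th, and the points of all 10 overlap.

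Loci of at least 5 peaks numbered 60, and their median log2 folds ran from 1.13 to 2.44 (interquartile range 1.44 to 1.76). The highest was at chr8:126827295-126843349 on the plus strand, where 4 of 8 peaks reached 8-fold (median 2.44). It started 12.2 kb beyond the end of the largest locus, on the same strand. The next were 9 minus-strand peaks at chr8:114250688-114263541 (2.41), 11 plus-strand peaks at chr8:123192173-123197962 (2.02), 20 minus-strand peaks at chr8:124086002-124102049 (1.95) and 8 plus-strand peaks at chr8:124820123-124838239 (1.95). Several of the 11 peaks at chr8:123192173-123197962 touched one another. The lowest was 1.13, for 6 minus-strand peaks at chr8:114506157-114520007. Low medians were also found at chr8:117072126-117091418 (plus, 1.24), chr8:129902151-129922610 (plus, 1.27), chr8:113680047-113683802 (minus, 1.28) and chr8:126329919-126342624 (plus, 1.32). At chr8:113680047-113683802 all 8 folds were between 1.01 and 1.36. At least 1 peak of 8-fold or more was present in 18 of the 60 loci. Peak by peak, 3.61% of members and 4.03% of the whole list reached 8-fold. A locus with more peaks has more occasions to hold one, and the matching count of loci in the rest was not made.

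Plus-strand peaks were in a small majority. Plus-strand members numbered 602 and minus-strand members 478, or 55.7% plus (exact interval 52.7 to 58.7%). The share was 54.4% (52.4 to 56.4%) in the rest of chromosome 8 and 50.4% in the whole list. The rule itself bears on this share, since it left out 353 plus-strand peaks and no minus-strand peak. With the 2 windows included the share was 66.6%. Counted by locus, 144 of 241 (59.8%) were on the plus strand, against 52.5% in the rest. Median log2 folds were 1.57 for the former strand and 1.62 for the latter. Some windows had a single strand: of the 16 windows with at least 10 members, chr8:111000001-112000000 (34 peaks) and chr8:117000001-118000000 (45 peaks) held plus-strand peaks only. In the rest of chromosome 8, 6 of the 54 windows with at least 10 peaks held a single strand.

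Neighbouring peaks were nearly always on the same strand. Another peak within 1000 bases on the same strand was found for 62.0% of members (Wilson interval 59.1 to 64.9%) and for 56.7% of the rest (54.7 to 58.7%). On the opposite strand one was found for 2.69% of members (1.88 to 3.83%) and 3.13% of the rest (2.50 to 3.91%). Neighbour shares also tend to rise where peaks are denser. No 2 members on opposite strands shared a base. The 23 opposite-strand pairs within 1000 bases came from 8 places. At 6 of these places the minus-strand peaks lay to the left of the plus-strand peaks (diverging), and at the other 2 to the right (converging). In the rest of chromosome 8 the corresponding counts were 13 and 7 of 21 places, with 1 of both kinds. The arrangement is that of nearby peaks, not of whole loci. The plus-strand locus chr8:125000134-125005488 lay inside the span of the minus-strand locus chr8:124999563-125012089. Its edges gave both a diverging place (chr8:124999563-125000880) and a converging one (chr8:125005441-125006417).

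The closest diverging pair lay 100 bases apart, with a minus-strand peak at chr8:127386855-127386876 (log2 fold 2.36) and a plus-strand peak at chr8:127386977-127387063 (2.03). The diverging place just beyond the Gse1 window, at chr8:123191580-123192256, joined the plus-strand locus with a median of 2.02 to a minus-strand locus that ended 191 bases before it. At chr8:127245514-127246199, 3 minus-strand peaks faced away from 2 plus-strand peaks. The converging places were chr8:125005441-125006417 and chr8:125791921-125792971, with the nearest peaks 886 and 905 bases apart.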

How the data were processed

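Each of the 4 libraries (2 IP, 2 input) entered 1 deposited peak list. The submitters' processing notes name mm9 as the build, STAR 2.6.1b and cutadapt 1.18. How peaks were called, filtered for significance and combined over replicates is not given in the sources used here. Deposited column 5 was read as a log2 fold of IP over input calculated by the authors: no header states it, but every value exceeds 1. The list holds no counts, so depth and precision per peak are unknown and no test was made.

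Starts were changed to count from 1. Members were taken by position, and density used the last peak of the chromosome as its end. Loci were formed at 10000 bases; named features followed a rule by number of peaks, median fold, fold, width and emptiness. The members, lists and rule were chosen with earlier results of these data known. Chaining and ratios were checked on simulated peaks. Whole-number ratios used a constant equal to the commonest log2 fold minus 1. No mm9 genome or annotation was used and no coordinates were converted, so sequences and transcripts at the peaks were not analysed here. From GENCODE M21 (GRCm38), only gene names, order and strand were taken. Alternatives covered fold, width, merging, boundary, windows, comparator and joining distance. Python 3.11.15, numpy 2.4.6, scipy 1.17.1, pandas 2.3.3 and matplotlib 3.10.9 were used.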

Additional observations from a re-analysis of the deposited data

How the results depend on the processing

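Of 76 alternative values, 44 stayed within the counting interval of the reported value, or within 1.5 times for counts, 30 moved and 2 turned sign. The distal peaks numbered 266 at a log2 fold of at least 2 and 39 at 3, in place of 1080, and the loci of 3 or more peaks 27 and 2, in place of 103. The density ratio, 2.37 as reported, was 2.07 and 2.55 under these limits, 3.14 with the 2 windows included, 2.76 against the other autosomes, 2.07 with the windows counted in the remainder of chromosome 8, 1.66 for loci and 1.48 per occupied 100 kb window. In settings chosen after seeing the data it was 1.96 without the 10 loci with most peaks of each set. It was 1.42 without the 3 densest distal windows, with the rest of chromosome 8 left whole. It exceeded 1 in each of these settings. The difference in median log2 fold, -0.02, turned to 0.0544 at a log2 fold of at least 2 and to 0.0330 with the windows included, and it was -0.0614 with the boundary 5 Mb further proximal and -0.0704 with the windows in the remainder. With the windows included, 5.72% of distal peaks reached 8-fold and 66.6% were on the plus strand. The share with a same-strand neighbour within 1000 bases, 62.0%, was 28.9% for peaks with a log2 fold of 2 or more and 17.9% for 3 or more, 56.5% for widths of at least 20 bases, 56.4% after merging within 50 bases, 66.9% with the windows, 91.8% within 10000 bases and 2.69% on the opposite strand. The share in the 10 loci with most peaks, 26.3%, was 48.7% at a log2 fold of at least 3, 21.96% and 32.2% with the boundary 5 Mb further proximal and distal, 36.7% with the windows, and 9.54% and 36.0% for joining at 1000 and 50000 bases. A limit on fold removes peaks from between others, which by construction lowers neighbour shares and locus counts; the causes of the other changes were not tested. No paired analysis was possible because the libraries have no separate values in the list, nor could a replicate be omitted.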

Other observations

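The features described next were picked with their values in view. The most tightly packed locus of at least 5 members held 6 minus-strand peaks within 0.413 kb at chr8:122071372-122071784, which covered 59.8% of its bases with a median log2 fold of 1.73. The next in packing, also on the minus strand, held 6 peaks in 1.87 kb at chr8:129115202-129117069, with a median of 1.82. Joined at 1000 bases instead of 10000, the largest stretches of members were 15 plus-strand peaks at chr8:126551804-126554957 (median log2 fold 1.90) and 13 minus-strand peaks at chr8:125413551-125415510 (median 1.38, 35.9% of bases covered). The latter lies inside the 4th largest locus.

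In the 60 loci of at least 5 members, the 5′-most peak had the higher log2 fold of the end peaks in 39 and the 3′-most in 21, with a median difference of 0.19 (5′ minus 3′). In the rest of chromosome 8 it was 85 and 57 of 145 loci, 3 being equal, with a median difference of 0.09. Over the whole list, which contains both, it was 1301 and 1001 of 2347 loci, 45 being equal, with a median difference of 0.08; none of these was tested here. Of the 10 largest loci, those ranked 1st, 2nd, 3rd, 4th, 7th and 10th had the higher fold at the 3′ end.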
